A study of Mus musculus with 24 samples.

Results

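Glycogen is the storage form of glucose, and in the brain it is held mainly in astrocytes. UDP-glucose pyrophosphorylase, encoded by *Ugp2*, makes the activated sugar, glycogen synthase (*Gys1*) joins it into chains, and the branching enzyme (*Gbe1*) adds the branch points. Glycogen phosphorylases named after muscle (*Pygm*), brain (*Pygb*) and liver (*Pygl*) release the glucose again. They are switched on by phosphorylase kinase, an enzyme with a regulatory alpha subunit (*Phka1* encodes the muscle form) and a catalytic gamma subunit (*Phkg1*). The protein encoded by *Ppp1r3c* brings protein phosphatase 1 to glycogen, where it acts against that kinase. Corticosterone, the main glucocorticoid of rodents, is a stress hormone with wide effects on glucose metabolism.

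These 9 genes were examined as enzymes and regulators of glycogen metabolism. The genes were named with earlier results of these data known, so their counts are descriptions, and every non-control probe whose transcript accession belonged to them was used. This gave 12 of the 56605 probes of the array, and 9 of the 23787 genes with a name. *Pygm*, *Pygb* and *Gbe1* had 2 probes each, called brighter and dimmer by their mean signal, and the others had 1.

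Gene expression was measured in the whole hippocampus of 48 male Swiss-Webster mice, 12 weeks of age. Corticosterone-treated animals drank water with 100 µg/ml corticosterone and 0.45% hydroxypropyl-β-cyclodextrin over 1 dark phase, the active period of mice, and control animals drank water with the same amount of cyclodextrin. Each treated group had its own control group of brothers, from several litters. Hippocampi were taken in the first, the fifth or the ninth hour of the light phase that followed, the resting period, from 8 control and 8 treated animals at each hour, and were not pooled. Each of the 24 arrays held 1 control animal labelled with Cy3 and 1 treated animal labelled with Cy5, so that within an hour the treatment and the dye cannot be told apart. Differences in the treatment effect between hours, and comparisons of hours within a dye, are free of this. Levels are signals of single channels on a linear scale, and differences are log2 fold changes ± the standard error (SE) of the fit.

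Depth on an array is signal over background. Over the arrays, 57.9% to 64.2% of probes were well above background in Cy3 and 61.0% to 70.4% in Cy5, and 0 spots were saturated. Of the 12 probes, 11 were well above background in every animal, and the dimmer *Gbe1* probe missed this in 1 control animal of the fifth hour. The expected cells were there: all 10 neuronal, 10 astrocyte, 6 oligodendrocyte, 6 microglial and 5 endothelial marker genes were well above background on all 24 arrays in both dyes. Of 6 skeletal muscle markers, *Acta1*, *Atp2a1* and *Tnnt3* were well above background on all 24 arrays in both dyes, *Myh4* and *Mylpf* on 20 to 24 arrays in a dye, and *Ckm* on 0 of 24 in either. In whole tissue, fewer cells of a type and less RNA per cell cannot be told apart.

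One of the arrays stood apart. On the array of the fifth hour with replicate number 7, spots along the first columns were dim in both dyes. Their median signal lay 0.91 below the median array on the log2 scale in columns 1 to 10 (a deviation of -0.91 over 1125 bright spots), and the deviation was -0.78 in columns 11 to 20 and -0.39 in columns 21 to 30. The other 23 arrays lay between -0.11 and 0.07 in the same first 10 columns. From column 41 on, the array lay above the median array instead, by 0.11 to 0.21 in strips of 10 columns, where the other arrays lay between -0.11 and 0.04. The other 8 probes lie there, and the signals of its animals were the highest of the fifth hour in both groups for *Phka1*, *Phkg1* and *Ppp1r3c*. The ratio of the dyes moved less, with a median log2 ratio of -0.06 in the first 10 columns. Probes of 3 genes lie in these columns: the *Gbe1* probes in columns 5 and 15, the brighter *Pygm* probe in column 16 and the *Ugp2* probe in column 25. For these probes the treatment differences at the fifth hour are given with and without this array, an alternative chosen after the data were seen. Of the other probes, only the call of *Ppp1r3c* between the ninth and the first hour in control animals changed without it.

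**Figure D1:**
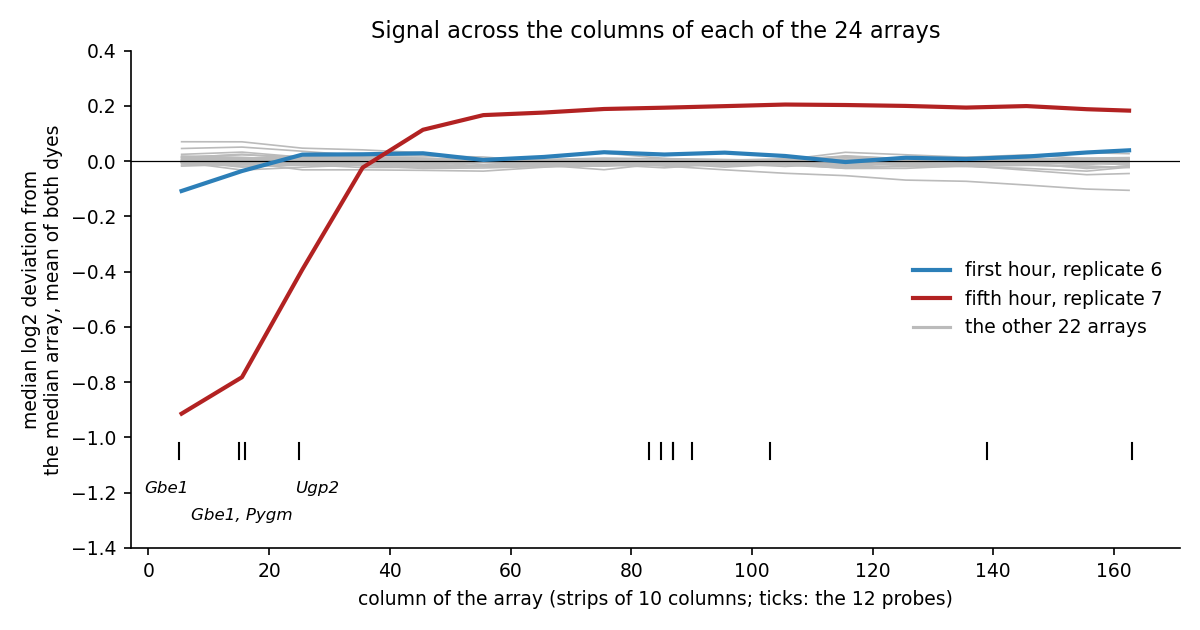
Median signal of the spots in strips of 10 columns on each of the 24 arrays, as a log2 deviation from the median array averaged over both dyes, against the column of the array; ticks mark the columns of the 12 probes. The array of the fifth hour with replicate number 7 (red) falls to -0.91 at its first columns, and the array of the first hour with replicate number 6 (blue) to -0.11.

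To show what lies upstream of 2 genes that changed in opposite directions, the promoter windows of *Pygm* and *Phkg1* are printed 5′ to 3′ from RefSeq (build GRCm38.p6). *Pygm* had the largest mean change of the 9 genes, and *Phkg1* is the gene with a glucocorticoid-type motif in its window. Each window runs from 250 bases before to 50 bases after the start of the gene, at chr19:6384158-6384457 on the plus strand for *Pygm* and at chr5:129879039-129879338 on the minus strand for *Phkg1*. Capitals mark the motif AGAACA, which reads TGTTCT here because it lies on the opposite strand.

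Pygm: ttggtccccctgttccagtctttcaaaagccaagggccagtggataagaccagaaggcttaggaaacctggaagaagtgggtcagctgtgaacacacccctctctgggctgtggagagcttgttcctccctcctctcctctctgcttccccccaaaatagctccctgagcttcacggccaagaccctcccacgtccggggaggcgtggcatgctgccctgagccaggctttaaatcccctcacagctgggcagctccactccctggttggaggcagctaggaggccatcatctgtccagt

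Phkg1: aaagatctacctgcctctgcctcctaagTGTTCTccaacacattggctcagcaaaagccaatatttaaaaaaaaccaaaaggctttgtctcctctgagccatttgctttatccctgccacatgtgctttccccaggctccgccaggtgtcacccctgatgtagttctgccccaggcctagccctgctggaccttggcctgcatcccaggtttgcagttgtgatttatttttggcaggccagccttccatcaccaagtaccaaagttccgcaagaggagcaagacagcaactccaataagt

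Windows were found for all 9 genes, 10 in total with 2 for *Ugp2*, and both strands were searched. The loose glucocorticoid response element, GNACA and TGTNC with 3 bases of any kind between them, was in 0 of the 10 windows and in 0.475% of all 32851 windows of this length. Its single arm AGAACA, which can lie within the full element, was in the *Phkg1* window alone and in 19% of all windows. TGACG, the core of the cyclic AMP response element, was found once each in the windows of *Pygb* and *Pygl* and in 20.8% of all windows. The E-box CACGTG was found once, in the window of *Ppp1r3c*, and in 7.15% of all windows. A match describes letters and not a bound site.

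The first comparison asked how overnight corticosterone changed these genes at each hour of the resting period. Muscle-type phosphorylase rose at every hour, glycogen synthase rose slightly at every hour, *Phka1* rose at the fifth hour and passed narrowly at the first, and *Ugp2* and *Phkg1* fell at the first and the fifth hour. By limma's separate channel test, with Benjamini-Hochberg adjustment over all 56605 probes and a threshold of 0.05, 6 of the 12 probes passed at the first hour, where 17.5% of all probes did. Of these, 4 were higher and 2 lower in treated animals, against 9.06% and 8.45% of all probes. In the fifth hour 6 passed as well (18% of all probes), again 4 higher and 2 lower (8.94% and 9.08% of all probes). The ninth hour had 3 (14% of all probes), all 3 of them higher and 0 lower (7.3% and 6.68% of all probes). Median log2 fold changes of the 12 probes were 0.12, 0.01 and -0.02 at the 3 hours, beside 0.00 at each hour over all probes. Regardless of sign, the median size of the difference was 0.15, 0.16 and 0.10 for the 12 probes, beside 0.13, 0.13 and 0.12 over all probes.

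**Figure D2:**
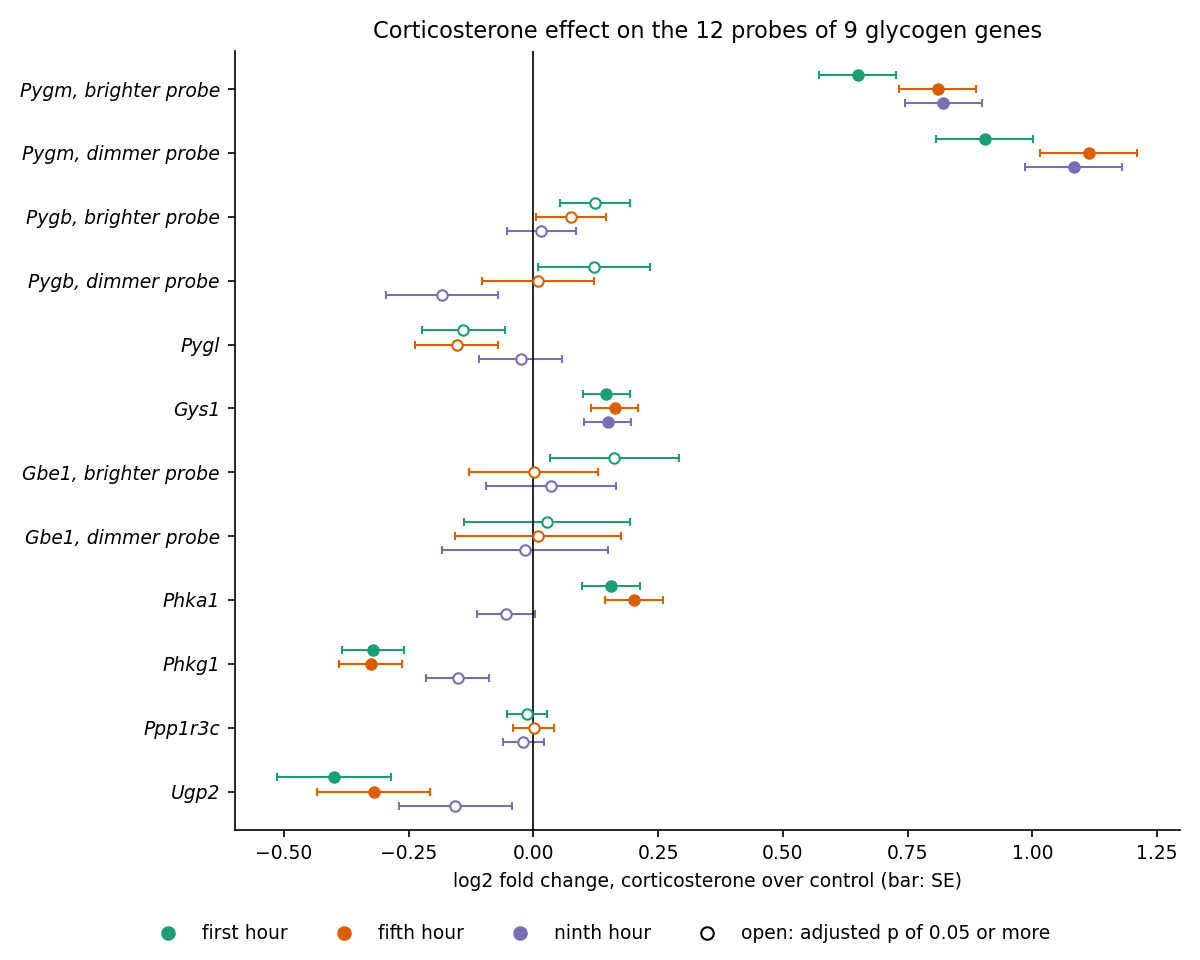
Log2 fold change of corticosterone-treated over control animals for each of the 12 probes at the first, the fifth and the ninth hour (n = 8 per group); bars show the SE, and open points did not pass an adjusted p of 0.05. Both *Pygm* probes lie far to the right at every hour, between 0.65 and 1.11, and *Ugp2* and *Phkg1* lie to the left.

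*Pygm* changed most among the phosphorylases. Its brighter probe had signals of 585, 704 and 761 (lowest, median and highest of 8) in control animals and 790, 1086 and 1343 in treated animals at the first hour. Every treated animal lay above every control animal. The signal was 1.57-fold higher (0.65 ± 0.077 on the log2 scale, adjusted p = 8.59e-09, limma), and it was higher on 8 of 8 arrays. The signals of the fifth hour were 551, 657 and 815 in control animals and 795, 1229 and 1407 in treated animals. Here 7 of 8 treated animals lay above all controls, and the log2 fold change was 0.81 ± 0.077 (adjusted p = 3.55e-11). In the ninth hour the groups parted again, with 626, 688 and 820 in control animals against 1088, 1246 and 1441 in treated ones and a log2 fold change of 0.82 ± 0.077 (adjusted p = 4.94e-11).

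The dimmer *Pygm* probe moved the same way. It read 193, 258 and 306 in control animals and 293, 490 and 570 in treated animals at the first hour, a log2 fold change of 0.90 ± 0.097 (adjusted p = 1.26e-09, limma). The lowest treated animal fell among the controls, and this was the animal with replicate number 8 that was also lowest on the brighter probe. Signals of the fifth hour were 230, 256.4 and 317 against 349, 586 and 723, a 2.16-fold difference (1.11 ± 0.097 on the log2 scale, adjusted p = 4.48e-12). Those of the ninth hour were 248, 269 and 308 against 492, 561 and 715, a 2.12-fold difference (1.08 ± 0.097, adjusted p = 1.95e-11). At both of these hours the groups did not overlap. Of the 12 probes, those with all treated above all control animals were 1 at the first hour, 1 at the fifth and 2 at the ninth, each of them a *Pygm* probe, where 0.91%, 0.576% and 0.853% of all probes did so. Over the 24 arrays, the log ratios of the 2 *Pygm* probes, with hour means removed, moved together (Pearson's r = 0.683, permutation p = 4e-05, Spearman's rho = 0.690, permutation p = 0.00034). Adjusted over the 3 pairs of probes tested in this way, these were 6e-05 and 0.00051, and r was 0.689 without the 2 farthest arrays.

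**Figure D3:**
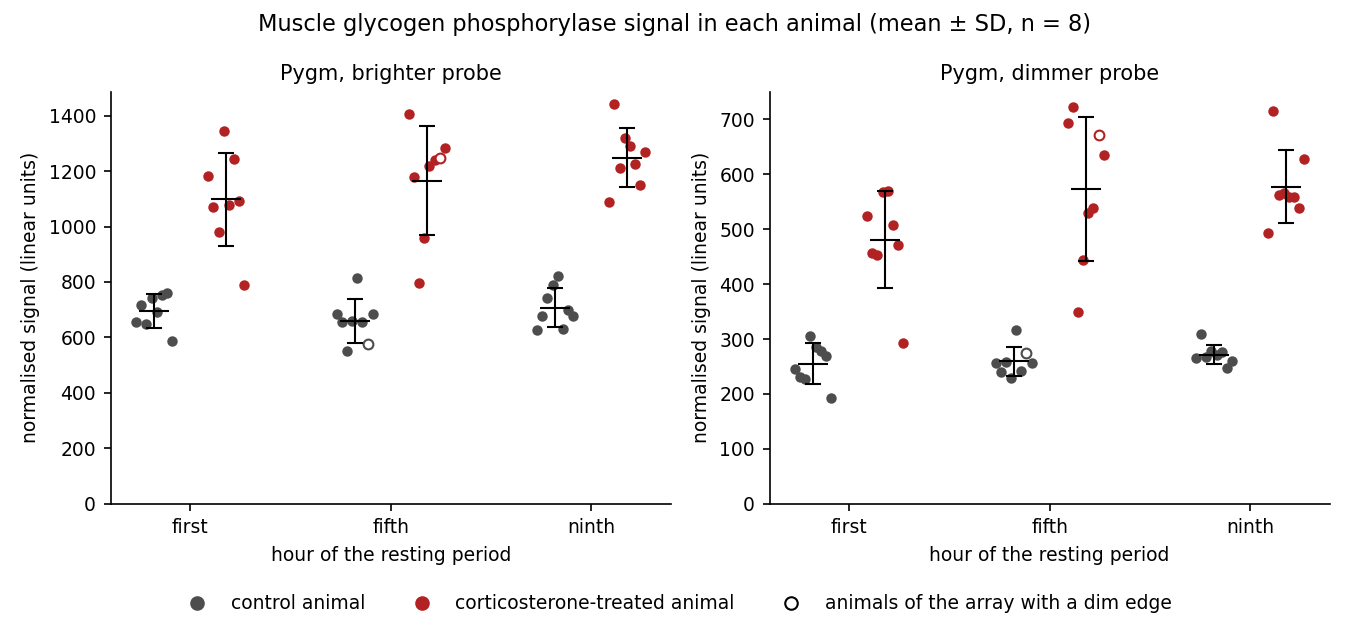
Normalised signal (linear units) of the brighter and the dimmer *Pygm* probe in every animal by hour of the resting period; black bars show mean ± SD of 8 animals, and open points are the animals of the array with the dim edge. Treated animals lie above control animals at all 3 hours, with an overlap at the fifth hour on the brighter probe and at the first hour on the dimmer one.

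*Pygm* was higher in treated animals on each of the 3 slides. Within slides the brighter probe differed by 0.56 to 0.72 at the first hour, 0.55 to 0.98 at the fifth and 0.81 to 0.83 at the ninth on the log2 scale. The dimmer probe ranged from 0.76 to 1.04, from 0.71 to 1.51 and from 1.03 to 1.20. Without the array with the dim edge the brighter probe gave 0.77 at the fifth hour (adjusted p = 4.09e-09, limma). The effect was not shown to differ between hours: the effect at the ninth minus that at the first hour was 0.17 ± 0.11 on the brighter probe (adjusted p = 0.830) and 0.18 ± 0.14 on the dimmer (adjusted p = 0.900).

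Brain-type and liver-type phosphorylase did not pass at any hour with all arrays. The brighter *Pygb* probe read 1650, 1734 and 2106 in control animals and 1742, 1911 and 2102 in treated animals at the first hour, and differed by 0.12, 0.07 and 0.02 over the hours on the log2 scale (each ± 0.07, adjusted p = 0.205, 0.477 and 0.908). The 95% interval of the difference ran from -0.01 to 0.26 at the first hour and from -0.12 to 0.15 at the ninth. The first-hour difference was 0.20 without slide 1, where it passed (adjusted p = 0.0257, limma), and -0.11 within slide 1. On the dimmer *Pygb* probe the differences were 0.12, 0.01 and -0.18 (each ± 0.11, adjusted p = 0.476, 0.969 and 0.276). Groups overlapped on both probes at every hour. A treated animal of the ninth hour, replicate number 3, was lowest on both, at 1383 and 232. Without its array the differences at the ninth hour were 0.11 on the brighter (adjusted p = 0.263) and -0.02 on the dimmer probe (adjusted p = 0.892). The log ratios of the 2 *Pygb* probes moved together over the 24 arrays (Pearson's r = 0.908, Spearman's rho = 0.879, permutation p = 2e-05 for each, the smallest that 100000 resamples give, adjusted p = 6e-05), with r = 0.789 without the 2 farthest arrays.

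*Pygl* read 253, 364 and 374 in control animals and 272, 309 and 427 in treated animals at the first hour, with the groups overlapping. Its differences were -0.14, -0.15 and -0.03 over the hours (each ± 0.083, adjusted p = 0.225, 0.184 and 0.870, limma). Their 95% intervals ran from -0.30 to 0.02, from -0.32 to 0.01 and from -0.19 to 0.14. In the fifth hour *Pygl* was higher on 4 and lower on 4 arrays, with a median log2 ratio of -0.03. The arrays with replicate numbers 5 and 8 gave -0.66 and -0.61, and the difference within slides ran from -0.31 to 0.14.

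The 2 phosphorylase kinase subunits went opposite ways. *Phkg1*, the catalytic gamma subunit named after muscle, read 428, 475 and 509 in control animals and 346, 375 and 475 in treated animals at the first hour. 7 of 8 treated animals lay below all controls. The difference was -0.32 ± 0.063 on the log2 scale (adjusted p = 0.000132, limma), and the signal was lower on 8 of 8 arrays. In the fifth hour it read 392, 505 and 549 in control animals against 298, 401 and 474 in treated animals (-0.33 ± 0.063, adjusted p = 9.7e-05), again lower on 8 of 8 arrays although the groups overlapped. In the ninth hour it read 418, 453 and 500 against 328, 417 and 487, lower on 6 of 8 arrays, and the difference of -0.15 ± 0.063 did not pass (adjusted p = 0.078). It passed with the processed signals of the scanner software (-0.18, adjusted p = 0.0389) and without slide 3 (-0.21, adjusted p = 0.0111), and when the array of the ninth hour with replicate number 7 (adjusted p = 0.0316) or that of the fifth hour with replicate number 8 (adjusted p = 0.0432) was left out. Within slides *Phkg1* differed by -0.34 to -0.27 at the first hour, by -0.41 to -0.27 at the fifth and by -0.27 to 0.01 at the ninth. At the ninth hour the -0.27 was on slide 1 and the 0.01 on slide 3. Log2 ratios of single arrays of that hour ran from -0.54 (replicate number 3) to 0.16 (replicate number 7).

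*Phka1*, the regulatory alpha subunit named after muscle, read 1001, 1118 and 1226 in control animals and 1082, 1185 and 1692 in treated animals at the first hour. It was higher on 5 of 8 arrays (0.16 ± 0.059 on the log2 scale, adjusted p = 0.0447, limma), with 1 treated animal far above the rest. Without the array of that animal, replicate number 8, the difference was 0.08 and did not pass (adjusted p = 0.264), and leaving out any of 7 other arrays also ended the call (adjusted p = 0.0503 to 0.0857). The call was lost in 7 of 21 alternative fits, among them the paired fit of log ratios (adjusted p = 0.0507), with adjusted p up to 0.209. In the fifth hour it read 842, 1016 and 1148 in control animals and 1034, 1149 and 1359 in treated animals. Treated animals were higher on 8 of 8 arrays there, and 4 of 8 lay above all controls (0.20 ± 0.059, adjusted p = 0.00855). It did not pass without slide 1 (adjusted p = 0.102) or slide 2 (adjusted p = 0.0720). In the ninth hour control animals gave 832, 955 and 1023 and treated animals 852, 913 and 1013, a difference of -0.05 ± 0.059 that did not pass (adjusted p = 0.560).

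On the side of synthesis, *Gys1* rose by a small amount at every hour. It read 322, 389 and 449 in control animals and 412, 424 and 445 in treated animals at the first hour, where the treated animals lay close together inside the range of the controls (0.15 ± 0.047 on the log2 scale, adjusted p = 0.0172, limma). In the fifth hour it read 337, 393 and 432 against 403, 433 and 474, with 5 of 8 treated animals above all controls (0.16 ± 0.047, adjusted p = 0.00722). In the ninth hour it read 362, 394 and 436 against 400, 436 and 476 (0.15 ± 0.047, adjusted p = 0.0175) and was higher on 8 of 8 arrays. As a fold change the rise was 1.11, 1.12 and 1.11. Its call was lost at the first hour without the array with replicate number 7 (adjusted p = 0.0813) and at the ninth without that with replicate number 8 (adjusted p = 0.0740). *Gys1* did not pass at the first hour without slide 2 (adjusted p = 0.110) or slide 3 (adjusted p = 0.281), at the fifth without slide 1 (adjusted p = 0.0835) or slide 3 (adjusted p = 0.0921), and at the ninth without any 1 of the 3 slides (adjusted p = 0.0714 to 0.120). With the processed signals of the scanner software its difference at the ninth hour was 0.10 and did not pass (adjusted p = 0.142).

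*Ugp2* was lower in treated animals. At the first hour control animals read 3764, 4264 and 4554 and treated animals 2941, 3213 and 3362. Every treated animal lay below every control animal, as on 0.654% of all probes. The signal fell by 24.2% (-0.40 ± 0.11 on the log2 scale, adjusted p = 0.00726, limma), and within slides it differed by -0.48 to -0.27. Without slide 2 the difference was -0.35 and did not pass (adjusted p = 0.177). In the fifth hour control animals read 1633, 3941 and 4469 and treated animals 1209, 3340 and 3547 (-0.32 ± 0.11, adjusted p = 0.0331), with a lower treated signal on 8 of 8 arrays. This did not pass in a separate fit for each hour (adjusted p = 0.208), without slide 1 (adjusted p = 0.171) or without slide 2 (adjusted p = 0.106). It was also lost when any of 4 other arrays of that hour was left out, those with replicate numbers 1, 5, 6 and 8 (adjusted p = 0.0555 to 0.0987). Both lowest values were those of the array with the dim edge, where the 78 bright spots nearest to the *Ugp2* probe deviated by a median of -0.60 in the control dye and -0.55 in the treated dye, and the probe itself by -1.32 and -1.49. In the ninth hour control animals read 3696, 4026 and 4512 and treated animals 3359, 3611 and 4150. The difference of -0.16 ± 0.11 did not pass (adjusted p = 0.355), although it was lower on 7 of 8 arrays. It passed in a separate fit for each hour (adjusted p = 0.0155) and with the authors' log2 ratios (adjusted p = 0.0208). The paired fit of log ratios also passed (adjusted p = 0.0264, limma).

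Without the array with the dim edge *Ugp2* passed at all 3 hours. The differences were -0.40 at the first hour (adjusted p = 3.46e-09), -0.30 at the fifth (adjusted p = 8.77e-06) and -0.16 at the ninth (adjusted p = 0.0107, limma), in a fit where 18%, 14.5% and 14.6% of all probes passed. The 7 control animals left at the fifth hour read 3726 to 4469 and the 7 treated animals 2957 to 3547. Their groups no longer overlapped, as on 0.896% of all probes, while the dimmer *Pygm* probe lay wholly above, as on 0.931%. The effect at the ninth minus that at the first hour was 0.24 with and without this array, with an adjusted p of 0.852 with it and 0.0362 without it, where 0.825% and 0.871% of all probes passed. A smaller fall of *Ugp2* at the ninth than at the first hour thus passed in the fit without this array and did not pass in the fit with it.

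**Figure D4:**
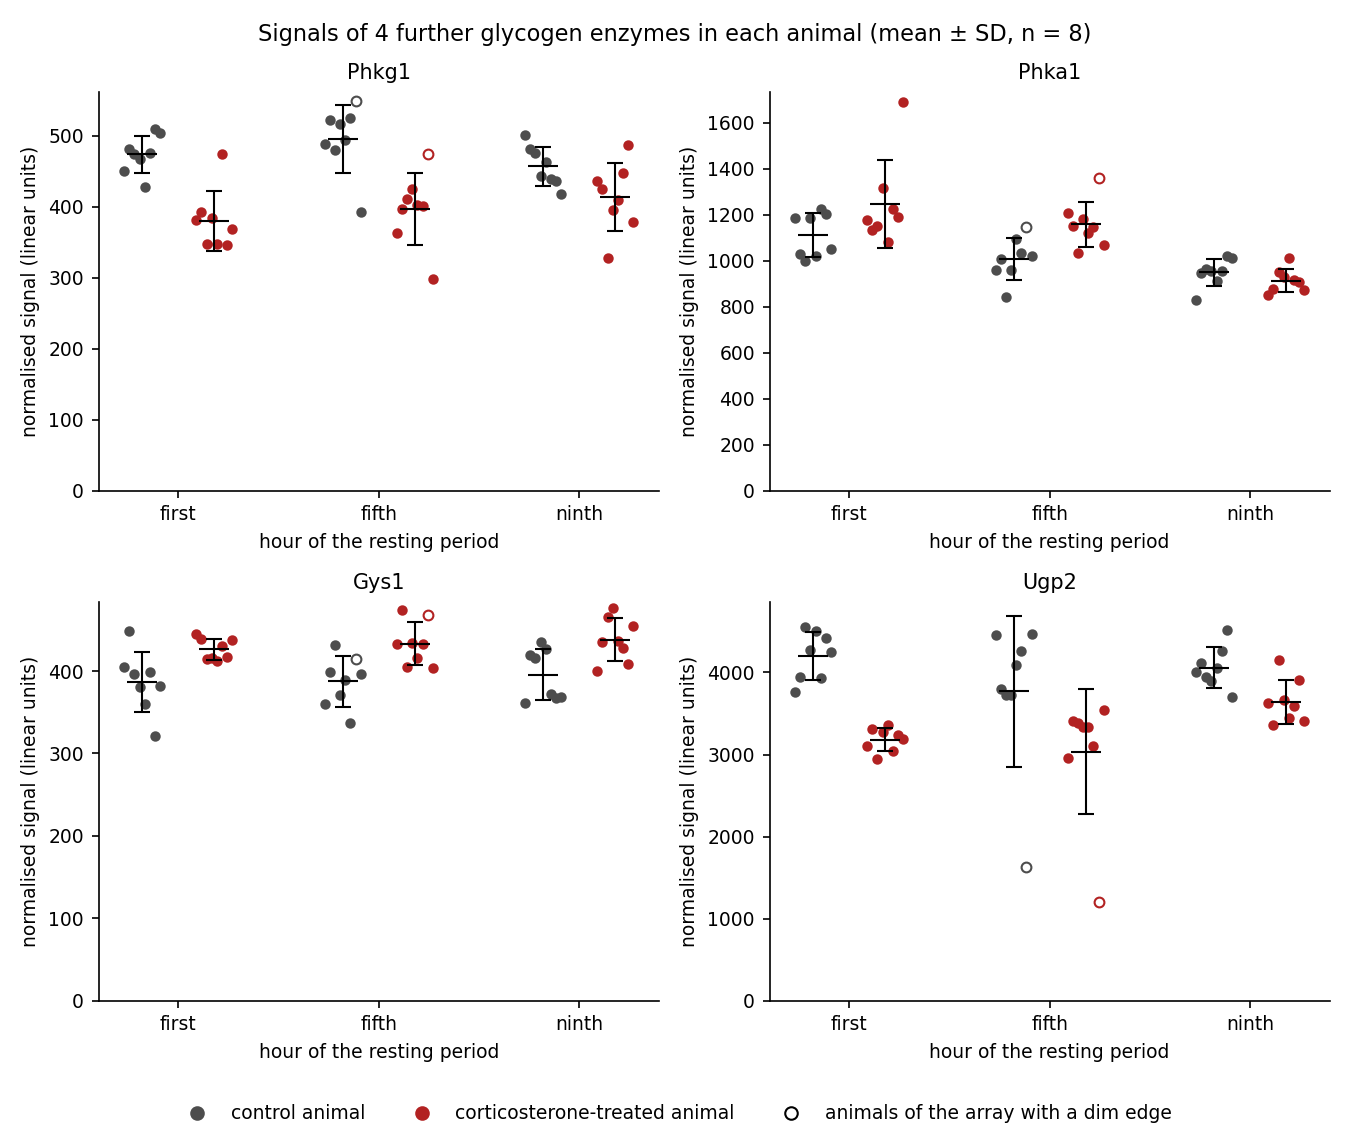
Normalised signal (linear units) of *Phkg1*, *Phka1*, *Gys1* and *Ugp2* in every animal by hour of the resting period; black bars show mean ± SD of 8 animals, and open points are the animals of the array with the dim edge. For *Ugp2* the open points, at 1633 and 1209, lie far below the other animals of the fifth hour.

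*Gbe1* and *Ppp1r3c* did not pass at any hour. The brighter *Gbe1* probe read 241, 619 and 708 in control animals and 273, 669 and 1058 in treated animals at the first hour, and differed by 0.16, 0.00 and 0.04 over the hours (each ± 0.13, adjusted p = 0.390, 0.995 and 0.886). For the dimmer probe the differences were 0.03, 0.01 and -0.02 (each ± 0.17). Without the array with the dim edge the differences at the fifth hour were 0.00 on the brighter probe (adjusted p = 0.992) and -0.01 on the dimmer (adjusted p = 0.958, limma), and neither passed at the other hours. With the authors' log2 ratios the brighter probe passed at the first hour (0.16, adjusted p = 0.0479). At that hour the array with replicate number 8 had a log2 ratio of 0.61 in the main fit, beside a median of 0.12 over the 8 arrays. Both animals of the array of the first hour with replicate number 6 were low, at 241 and 273 on the brighter and at 56.5 and 68.1 on the dimmer probe. Bright spots around the brighter probe deviated by -0.50 in the control and -0.54 in the treated dye on that array, and those around the dimmer probe by -0.05 and -0.07. The log ratios of the 2 *Gbe1* probes gave Pearson's r = 0.226 (permutation p = 0.290) and Spearman's rho = 0.186 (permutation p = 0.383) over the 24 arrays, with r = 0.176 without the 2 farthest. *Ppp1r3c* read 4416, 4790 and 5061 in control animals and 4379, 4704 and 5146 in treated animals at the first hour. It differed by -0.01, 0.00 and -0.02 over the hours (each ± 0.04), and its 95% intervals reached no further than -0.10 and 0.08.

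The second comparison asked whether these genes moved along the resting period itself. In control animals 0 of the 12 probes passed between any 2 hours (limma). At an unadjusted p under 0.05 these were 2 probes for the fifth against the first hour, 3 for the ninth against the first and 1 for the ninth against the fifth, where 7.2%, 10.3% and 6.36% of all probes were under it, and 0.0053%, 0.542% and 0.0353% passed after adjustment. The 1 probe for the ninth against the fifth hour was the dimmer *Gbe1* probe (0.38 ± 0.19, unadjusted p = 0.0451, limma). Its control mean at the fifth hour was 112, and 123 without the array with the dim edge, against 138 at the ninth. In treated animals 2 of 12 were lower at the ninth than at the first hour, where 1.8% of all probes were lower and 4.05% differed. These were *Phka1*, at -0.44 ± 0.068 (adjusted p = 8.34e-06), and *Ppp1r3c*, at -0.16 ± 0.047 (adjusted p = 0.0187). *Ppp1r3c* did not pass with no normalization between arrays (adjusted p = 0.485), without slide 1 (adjusted p = 0.310) or without slide 2 (adjusted p = 0.254), and without the array of the ninth hour with replicate number 4 (adjusted p = 0.0518) or of the first hour with replicate number 7 (adjusted p = 0.0624). *Phka1* was also lower at the ninth than at the fifth hour (-0.34 ± 0.068, adjusted p = 0.00376), as 1 of 12 probes, where 0.392% of all probes were lower and 0.671% differed. This did not pass with no normalization between arrays (-0.27, adjusted p = 0.346) or without slide 1 (-0.31, adjusted p = 0.441).

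Control animals gave differences of the same sign. *Phka1* differed by -0.23 ± 0.068 between the ninth and the first hour in them (adjusted p = 0.104, limma). For *Ppp1r3c* this was -0.16 ± 0.047 (adjusted p = 0.0859), and it passed without the array with the dim edge (adjusted p = 0.0457, where 0.874% of all probes passed). Without that array *Ugp2* also passed in treated animals, higher by 0.19 at the ninth than at the first hour (adjusted p = 0.0115, where 5.11% of all probes passed). Between the fifth and the first hour 0 of 12 probes passed in treated animals against 0.544% of all probes, and 1 was under an unadjusted p of 0.05, against 9.6% of all probes.

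With all arrays, the effect of corticosterone itself was not shown to differ between any 2 hours, with 0 of 12 probes passing (limma), while *Ugp2* passed for the ninth minus the first hour without the array with the dim edge, as given above. At an unadjusted p under 0.05 there were 0 probes for the fifth minus the first hour, 1 for the ninth minus the first and 2 for the ninth minus the fifth, where 4.44%, 7.2% and 5.2% of all probes were under it, and 0.0389%, 0.825% and 0.0848% passed after adjustment. *Phka1* had the lowest adjusted p of the 12 probes, with a difference in effect of -0.21 ± 0.083 for the ninth minus the first hour (adjusted p = 0.379) and of -0.26 ± 0.083 for the ninth minus the fifth (adjusted p = 0.374).

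Of 22 other genes of glycogen handling, read on their brightest probe, 5 were higher and 2 lower at the first hour, 6 higher and 3 lower at the fifth and 5 higher and 3 lower at the ninth. Over all 23787 named genes on their brightest probe, 10.6%, 10.4% and 8.9% were higher and 10%, 10.3% and 6.76% lower at these hours. Their median log2 fold change was 0.06, 0.07 and 0.04, beside 0.00, 0.00 and 0.01 over all named genes. Among the proteins that bring phosphatase 1 to glycogen, *Ppp1r3b* rose at every hour, by 0.31, 0.43 and 0.29 on the log2 scale (each ± 0.10, adjusted p = 0.0247, 0.00162 and 0.0424), and was higher on 8 of 8 arrays each time. At the ninth hour it did not pass without the array with the dim edge (adjusted p = 0.0547). *Ppp1r3f* rose by 0.15 at the fifth and 0.16 at the ninth hour (each ± 0.047, adjusted p = 0.0132 and 0.00812), and its dimmer probe did not pass.

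*Ppp1r3g* was the gene of these 22 whose effect turned with time. Control animals read 1082 ± 110.1 (mean ± SD, n = 8) and treated animals 1518 ± 252 at the first hour, a difference of 0.48 ± 0.089 on the log2 scale (adjusted p = 5.72e-05, limma). The means were 943 ± 204 and 917 ± 133 at the fifth hour, where the difference of -0.02 did not pass (adjusted p = 0.872). By the ninth hour they were 1072 ± 124 and 898 ± 91.5, with the treated animals lower (-0.25 ± 0.089, adjusted p = 0.0372). The effect at the ninth minus that at the first hour, -0.73 ± 0.13, passed by itself (adjusted p = 0.000127). Treated animals differed from those of the first hour by -0.72 at the fifth and -0.75 at the ninth hour (adjusted p = 8.06e-06 and 7.06e-07).

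Glucose-6-phosphate is where glycogen is built from and where it returns to. *Pgm1*, the phosphoglucomutase that links it to glucose-1-phosphate, rose by 0.31, 0.25 and 0.14 (each ± 0.044, adjusted p = 1.96e-07, 1.55e-05 and 0.0123, limma). *Hk1*, the main hexokinase of the brain, rose by 0.21, 0.12 and 0.29 (each ± 0.045, adjusted p = 0.000276, 0.0361 and 4.31e-06), and at the fifth hour it did not pass without the array with the dim edge (adjusted p = 0.0928). *G6pc3*, a glucose-6-phosphatase, fell by 0.22, 0.22 and 0.16 (each ± 0.036, adjusted p = 1.99e-06, 3.17e-06 and 0.000446). The dimmer probes of *Hk1* and *G6pc3* did not pass at any hour. *Pgm2* fell by 0.42 at the first and 0.30 at the ninth hour (each ± 0.082, adjusted p = 0.000277 and 0.00869). *Gsk3a*, a kinase that acts on glycogen synthase, rose by 0.15, 0.16 and 0.16 (each ± 0.043, adjusted p = 0.00677, 0.00359 and 0.00349).

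Other phosphorylase kinase subunits passed on their brightest probe at the fifth hour alone. *Phkb*, the beta subunit, differed by -0.27 ± 0.083 (adjusted p = 0.0136, limma). *Phkg2*, the liver form of the gamma subunit, was higher by 0.10 ± 0.036 (adjusted p = 0.0249), and did not pass without the array with the dim edge (adjusted p = 0.0560). *Phka2*, the liver form of the alpha subunit, did not pass on its brightest probe, and its 2 other probes went opposite ways. The brighter of them was higher at the first (0.20, adjusted p = 0.0189) and the fifth hour (0.28, adjusted p = 0.00101), and the dimmer was lower at the fifth (-0.31, adjusted p = 0.0079) and the ninth (-0.29, adjusted p = 0.0151). *Stbd1*, which ties glycogen to membranes, was lower at the fifth hour (-0.26 ± 0.089, adjusted p = 0.0278), which was also lost without that array (adjusted p = 0.0769). The dimmer probe of *Stbd1* (-0.08 at the fifth hour, adjusted p = 0.682) and that of *Phkb* did not pass at any hour. *Gaa*, the lysosomal glucosidase, lies in column 9 and gave 0.16 at the fifth hour with an adjusted p of 0.510, and 0.18 with an adjusted p of 0.0167 without that array. With *Phka2* and *Gaa*, 11 of the 22 genes, among them glycogenin (*Gyg*) and *Gsk3b*, did not pass on their brightest probe at any hour in the fit with all arrays. *Ppp1r3a*, 1 of these, was well above background in 0 of 8 control animals at each hour and in 1 treated animal, of the fifth hour. The dimmer probes of *Gyg* (0.21, adjusted p = 0.0242) and of *Pgm2l1*, also among the 11 (-0.23, adjusted p = 0.0112), passed at the fifth hour.

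**Figure D5:**
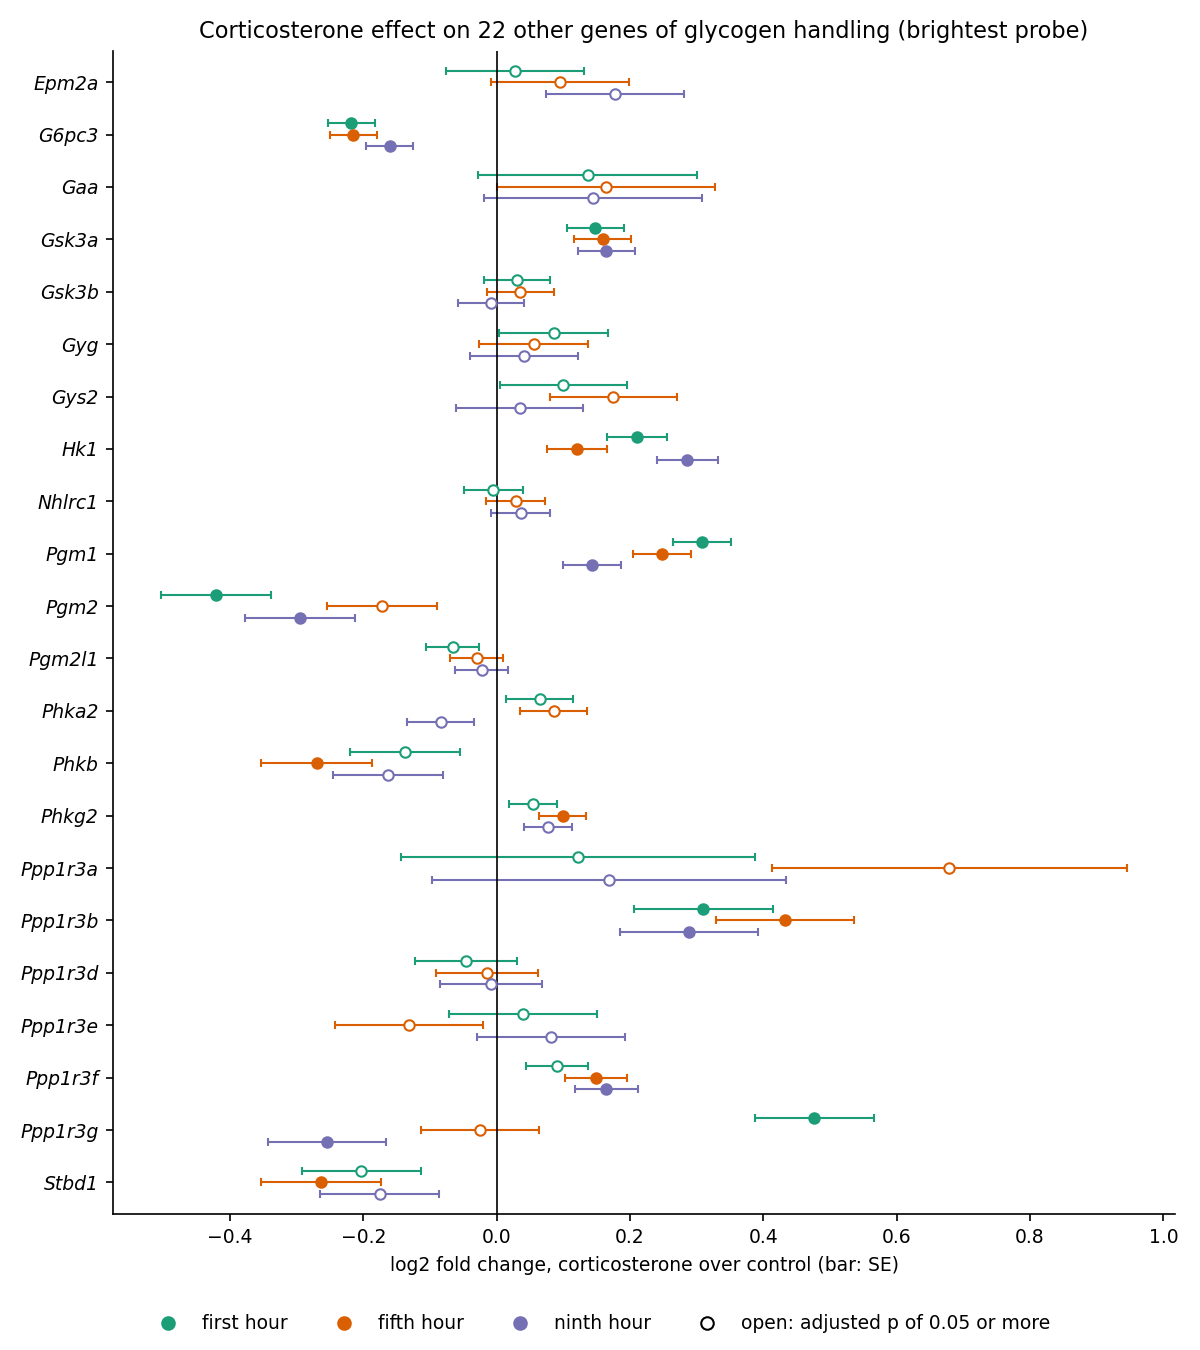
Log2 fold change of corticosterone-treated over control animals for the brightest probe of each of 22 other genes of glycogen handling at 3 hours (n = 8 per group); bars show the SE, and open points did not pass an adjusted p of 0.05. *Ppp1r3g* runs from 0.48 at the first hour to -0.25 at the ninth.

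Marker genes of single cell types were counted on their brightest probe in the same way, against the same shares of all named genes. Of the 10 astrocyte markers, 2 rose and 2 fell at the first hour, 2 rose and 4 fell at the fifth, and 2 rose and 2 fell at the ninth. *Aldh1l1* rose by 0.57, 0.51 and 0.42 (adjusted p = 8.44e-14, 4.29e-12 and 3.19e-09, limma) and the water channel *Aqp4* fell by 0.75, 0.85 and 0.69 (adjusted p = 1.85e-08, 1.38e-09 and 3.36e-07). Summed over the list, the signal ran from 107743 to 134125 in control and from 124041 to 145943 in treated animals at the first hour, from 111356 to 135770 and from 126159 to 139515 at the fifth, and from 118203 to 131543 and from 123255 to 134174 at the ninth. The 10 neuronal markers had 0, 3 and 2 higher and 0 lower at the 3 hours, and the 6 oligodendrocyte markers 1 higher at each hour and 2, 2 and 3 lower. Median summed signals of the oligodendrocyte list were 67892, 70269 and 69986 in control and 59965, 56135 and 56981 in treated animals, with overlapping groups at each hour. Of the 6 microglial markers 0, 1 and 0 were higher and 3, 2 and 0 lower. Their median summed signals went the other way, with 37555, 38230 and 39241 in control and 39964, 42448.5 and 41717 in treated animals. The groups overlapped at each hour.

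Of the 5 endothelial markers 1, 2 and 1 were higher and 3, 2 and 1 lower, and their summed signal at the first hour ran from 8964 to 11069 in control and from 6467 to 8399 in treated animals, without overlap. The groups overlapped at the fifth hour, with 9004 to 11386 against 7401 to 9086, and at the ninth, with 8306 to 10107 against 7870 to 9077. Of the 6 skeletal muscle markers *Atp2a1* rose at the first hour (0.24, adjusted p = 0.0234, limma) and 0 passed at the fifth or the ninth. Their summed signal ran from 560 to 677 in control and from 624 to 735 in treated animals at the first hour. None of the 6 choroid plexus markers and neither of the 2 blood markers measured passed at any hour. The part of these cell types in the results above was not tested.

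Over all 48 animals, the 5 named genes whose log2 signal was most like that of the brighter *Pygm* probe, by Pearson's r among 15437 genes, were *Tbc1d7*, *Atxn7l3*, *Prkar1b*, *Chst11* and *Pja2*, with r from 0.866 to 0.889. In the 46 animals without the array with the dim edge they were *Tbc1d7* (r = 0.914), *Atxn7l3*, *Prkar1b*, *Aldh1l1* and *Pde2a* (r = 0.869). For *Ugp2* the 5 were *Tmem47*, *Ccni*, *Rnf13*, *P2ry12* and *Etaa1*, with r from 0.944 to 0.959, and their probes lie in columns 8 to 35 of the array. In the 46 animals without that array they were *Plpp3* (r = 0.883), *Gkn3*, *P2ry12*, *Sh3bgrl* and *Rap1a* (r = 0.852). These are descriptions over animals that share the treatment, the hour and the slide.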

How the data were processed

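Total RNA of single hippocampi was hybridised to Agilent SurePrint G3 Mouse v2 arrays, 24 arrays on 3 slides, each with all 3 hours. The deposited scanner files, made with Agilent Feature Extraction 10.7.3.1, give an unnormalised median intensity per spot, with the local background beside it, for each dye. A deposited table holds the authors' log2 ratios of Cy5 over Cy3, used as an alternative.

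Intensities were analysed with R 4.3.3, limma 3.58.1 and statmod 1.5.0 after the methods of the study: normexp background correction, loess within arrays (3671 control spots unweighted) and quantile normalization between arrays. Outlier spots were left out (77 probes lacked a value on 1 or more arrays) and copies of a probe were averaged. The separate channel test fitted 6 groups with an intraspot correlation of 0.279, which pairs the 2 animals of an array. The offset was 50 when testing and 0 when estimating differences and SE. P values were adjusted over all 56605 probes by the Benjamini-Hochberg procedure, across 12 comparisons, with a threshold of 0.05. The code was tested on simulated data.

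Names came from RefSeq accessions (34566 probes). The members and gene lists were chosen with earlier results of these data known. Named were all members, the other glycogen genes that passed, markers by list, and the 5 genes most like each of the 2 members with the largest mean change. Alternatives changed the offset, background correction, normalization, low-signal filter, variance model, test and samples. The number of arrays limits the precision. Protein and probe sequences were not used here, and 1 gene of the glycogen list is not reported here.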

Additional observations from a re-analysis of the deposited data

Results flagged for a closer look

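Each of the 12 probes was looked at in each of the 6 groups of 8 animals, which gave 72 sets of signals. Of these, 13 held an animal whose gap to its nearest neighbour passed Dixon's limit of 0.526 of the range. Chance gives this in about 1 in 20 independent sets, but the same animals and arrays recur over the probes. For *Ugp2* the animals past the limit were the control animal at 1633 and the treated animal at 1209 of the fifth hour, replicate number 7. Both were on the array with the dim edge. The control animal of the same array was lowest on the dimmer *Gbe1* probe at 35.0. On the array of the first hour with replicate number 6, the control animal was lowest on the brighter *Gbe1* probe at 241 and on the dimmer one at 56.5, the treated animal was lowest on the dimmer one at 68.1, and the treated animal was highest for *Phkg1* at 475.

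The treated animal of the first hour with replicate number 8 was highest for *Phka1* at 1692 and for *Pygl* at 427 and lowest on the dimmer *Pygm* probe at 293. The remaining 3 were control animals: replicate number 2 of the first hour was highest on the brighter *Pygb* probe at 2106, replicate number 7 of the first hour was lowest for *Pygl* at 253, and replicate number 8 of the fifth hour was lowest for *Phkg1* at 392. The part of the dim edge in these values was not tested.

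The effect of corticosterone on *Ppp1r3g* differed between hours, by -0.73 on the log2 scale for the ninth minus the first hour (adjusted p = 0.000127, limma).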

How the results depend on the processing

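Of 810 values of 39 tested differences under 21 alternative fits, 776 stayed on their side of the threshold, 26 lost the threshold, 8 gained it and 0 called values reversed. The 39 were the treatment difference of every probe at each hour and those differences between hours that had passed in the main fit. A difference between hours that had not passed could thus not be counted as gaining the threshold. Differences that had not passed took the other sign in 54 values, counted over these fits and the fits within slides. Both *Pygm* probes passed in all 21 at every hour, and *Phkg1* in all 21 at the first and the fifth hour. The count of probes passing fell from 6 to 3 at the first hour without slide 2 and from 6 to 3 at the fifth without slide 1. In treated animals it rose from 0 to 1 for the fifth against the first hour without slide 2. For the ninth against the first hour it fell from 2 to 1 without slide 1 and with no normalization between arrays, and for the ninth against the fifth from 1 to 0 in both of these. Without slide 2 the count for the ninth against the first hour stayed at 2, but *Ppp1r3c* was no longer among them. Without the array with the dim edge it rose from 0 to 1 for the effect at the ninth minus the first hour (*Ugp2*) and in control animals for these hours (*Ppp1r3c*). The cause was not tested. The counts without a slide or without normalization between arrays were not set beside the shares of all probes passing in those fits. Their changes are thus not read as a result about these genes.

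A control and a treated animal shared each array. With the log ratios of the arrays as the paired values, the replicate block, *Phka1* no longer passed at the first hour (0.16, adjusted p = 0.0507) and *Ugp2* passed at the ninth (-0.16, adjusted p = 0.0264, limma), and no other call at an hour changed. With each of the 24 arrays left out in turn, chosen after the data were seen, 917 of 936 values of the same differences stayed on their side of the threshold. Another 16 lost it, 3 gained it and 0 called values reversed. Of the values that had not passed, 25 took the other sign. The counts of probes passing ran from 5 to 6, from 5 to 6 and from 2 to 4 at the 3 hours. For the ninth against the first hour they ran from 0 to 1 for the effect and in control animals and from 1 to 3 in treated animals. These counts were not set beside the shares of all probes passing in the fits with an array left out. Their changes are thus not read as a result about these genes. Within slides, 8 of 117 values moved by at least the spread between arrays, and 109 were counted as unmoved. The 109 include the differences between hours in treated animals, which had no such spread to be set against. Signal over background limits the dimmer *Gbe1* probe most.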
